A study of Mus musculus with 12 samples.

Results

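The tumors compared here received doxorubicin together with an antibody against PD-1 (DOX/anti-PD-1) or doxorubicin together with the control antibody IgG1 (DOX/IgG1), so the comparison asks what PD-1 blockade adds on top of doxorubicin. They were chosen by their treatment labels alone and are 6 of the 12 tumors sequenced, 3 in each group. All tumors came from female MMTV-PyMT mice on the C57BL/6 strain, which carry the polyoma middle T oncogene behind the promoter of the mouse mammary tumor virus and grow mammary tumors without further manipulation. In both doxorubicin groups treatment began at a tumor diameter of 1 cm, with 5 mg/kg doxorubicin into the peritoneal cavity each week over 5 weeks and, 1 day after each dose, 10 mg/kg of the anti-PD-1 antibody 4H2 or of IgG1. The 3 IgG1 tumors and 3 anti-PD-1 tumors without doxorubicin began at 0.6 cm and got 20 mg/kg of antibody followed by 10 mg/kg, so they also differ from the doxorubicin groups in size, dose and schedule and serve here as side values. The labels give 5 weeks for every group, and no age is given. Each library holds RNA of 1 whole tumor, in which cancer, stromal and immune cells are mixed, the model is driven by 1 oncogene in mammary epithelium, and all p-values measure the spread among 3 tumors a group.

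PD-1, encoded by Pdcd1, is an inhibitory receptor of activated T cells, and its ligands PD-L1 (Cd274) and PD-L2 (Pdcd1lg2) sit on tumor and myeloid cells. T cells and NK cells that are freed from such brakes release interferon gamma, which acts through its receptor to induce guanylate-binding proteins, immunity-related GTPases and the antigen presentation machinery. Doxorubicin intercalates into DNA and traps topoisomerase II, and the DNA damage stabilizes p53, whose targets include Cdkn1a, Mdm2 and Ccng1.

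Expression is taken as TPM, as the study's methods state, the share of a gene among the transcripts of a tumor scaled to a fixed total, for 21960 genes. The values alone do not exclude another length-scaled unit. The sums of the listed TPM ran from 642245 to 725506 in these 6 tumors, and the read depth of the libraries is unknown because counts were not used here. Epithelial identity was present in every tumor. The adhesion molecule Epcam stood at 565, 522 and 418 TPM in the DOX/IgG1 tumors and at 734, 920.1 and 468 TPM in the DOX/anti-PD-1 tumors. The keratin Krt18 stood at 412, 628 and 655 TPM against 749.6, 499 and 448 TPM. For both genes the groups overlapped.

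DOX/IgG1 tumor 1 stood apart from the other tumors. Its mean correlation with the other tumors of its group was 0.862, against 0.898 and 0.897 for the others of that group, and it took the value -87.9 on the first principal component, where the other 5 tumors lay between -4.58 and 34.8. It listed 8104 genes at 0, the highest number among the 12 tumors. The iron-binding milk protein lactoferrin, encoded by Ltf, reached 7185 TPM in it, against 1022 and 750.1 TPM in the other DOX/IgG1 tumors and 1428, 865 and 648 TPM in the DOX/anti-PD-1 tumors. Some lymphocyte and stromal genes were low in it and others were not. Cd3e, a subunit of the T cell receptor complex, stood at 0.88 TPM against 24.6 and 15.7 TPM, and the smooth muscle actin Acta2 at 63.7 TPM against 345.9 and 507 TPM, while the lymphocyte receptor Cd27 was highest in it. The header of its value column holds the word test, unlike those of the other tumors, and what this marks is not stated. The headers of the 3 DOX/anti-PD-1 columns also end in another number than those of the other 9 tumors, a difference that cannot be told apart from the treatment. Other tumors stood apart on further components. DOX/anti-PD-1 tumor 1 took the value 69.8 on the second, and DOX/anti-PD-1 tumor 3 the value -59.3 on the third, with 19.4% of the variance. The mean correlation with the other 11 tumors was 0.877 for DOX/IgG1 tumor 1 and next lowest, 0.888, for DOX/anti-PD-1 tumor 3. Results that rest on DOX/IgG1 tumor 1 are given below with and without it.

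**Figure D1:**
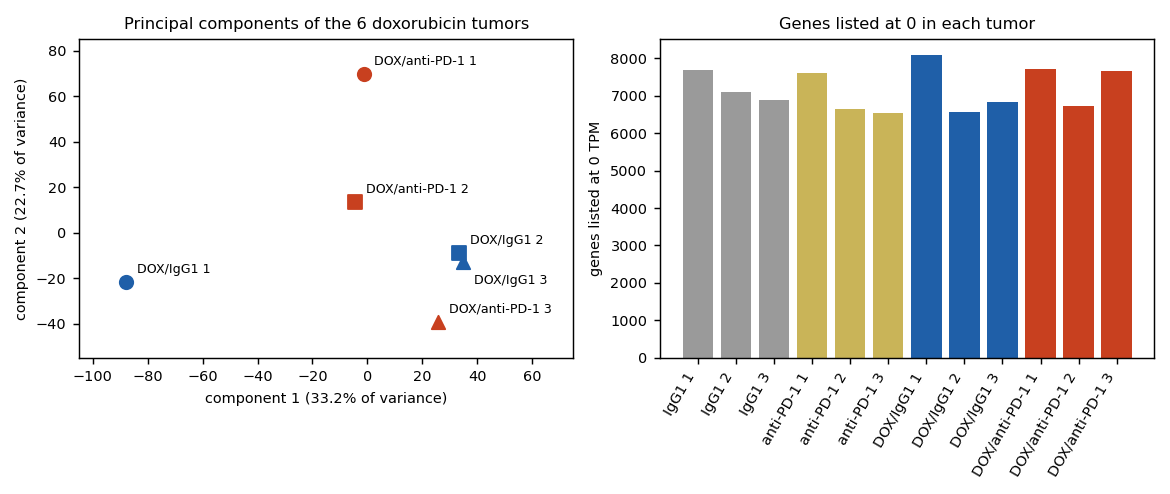
Left, the 6 doxorubicin tumors on the first and second principal components of log2(TPM + 1), with 33.2% and 22.7% of the variance. Right, bars give the number of genes listed at 0 TPM in each of the 12 tumors, colored by group. DOX/IgG1 tumor 1 lies far to the left and has the tallest bar, at 8104 genes.

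No gene passed the test across all genes. Of 13946 genes at 1 TPM or more in at least 3 of the 6 tumors, limma called 0 (0%). A call needed an adjusted p under 0.1 and a difference of more than 1 on the log2 scale, and the smallest adjusted p was 0.103. At an unadjusted p below 0.05, 252 genes (1.81%) were higher and 403 (2.89%) lower with anti-PD-1, 655 in all, fewer than the 697.3 that chance alone would give. The 3 tumors of a group lay entirely above or below those of the other in 595 genes that were higher (4.27%) and 830 that were lower (5.95%) with anti-PD-1, together 10.2% where chance splits of 3 against 3 give 10%. The tested genes had a median log2 fold change of -0.04. With scaling by the median of ratios, 306 genes were higher and 366 lower at such a p and the median was -0.00189, so the lean toward lower values depends partly on scaling. Some other settings gave calls: 3 genes with scaling by the median of ratios, 2 with all 12 tumors in the fit and 3 without a mean-variance trend, all of them among Bpifa2, Smr3a and Hist1h3a. Without DOX/IgG1 tumor 1 the calls were 4 and the genes at an unadjusted p below 0.05 numbered 1051, of which 701 were lower. Without DOX/anti-PD-1 tumor 3 there was 1 call, the histone gene Hist1h2af, and for every other tumor left out there was 0. Higher and lower below therefore describe values and their direction, not passed tests. A gene under 1 TPM in a whole group met the minimum only through the other group, so the filter fixed its direction.

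The group that lay outside the rest was mostly DOX/IgG1. Among the tested genes, all 3 DOX/IgG1 tumors lay above the other 9 tumors in 249 genes and below them in 88. All 3 DOX/anti-PD-1 tumors lay above the other 9 in 103 genes and below in 34. A set of 304 genes combined a log2 fold change beyond 1, an unadjusted p below 0.05 and groups that did not overlap, 110 of them higher and 194 lower. The DOX/IgG1 tumors lay outside the other 9 in 104 of these 304, and the DOX/anti-PD-1 tumors in 28. Over all 1425 tested genes whose groups did not overlap, these counts were 337 and 137. The set of 304 was picked for not overlapping, which lying outside requires, so its counts are raised partly by construction. Genes of this set with the smallest p are described next. For each of them, as for every gene below whose groups do not overlap, the exact permutation test gives p = 0.1, two-sided, the smallest value that 3 tumors against 3 allow.

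**Figure D2:**
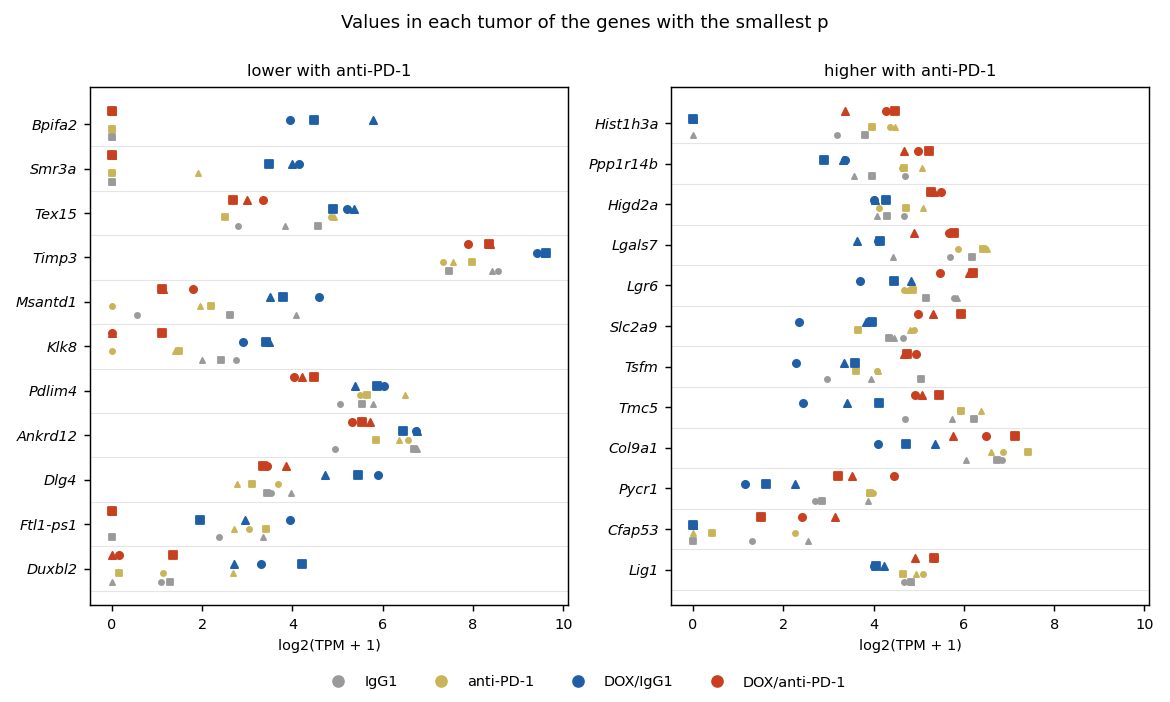
Log2(TPM + 1) in each of the 12 tumors for lower and higher genes with the smallest p. Color gives the group and shape the tumor number. For genes such as Bpifa2 and Timp3 the blue DOX/IgG1 points lie apart, and the red DOX/anti-PD-1 points lie among those of tumors without doxorubicin.

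The genes with the smallest p among those lower with anti-PD-1 encode proteins of saliva. Bpifa2 (ENSMUSG00000042459, chromosome 2, 154008265 to 154016079), a secreted lipid-binding protein of the parotid gland, stood at 14.4, 21.3 and 53.7 TPM in the DOX/IgG1 tumors. It was listed at 0 in each DOX/anti-PD-1 tumor and in all 6 tumors without doxorubicin (limma adjusted p = 0.103, lower in 3 of 3 tumors). Smr3a (ENSMUSG00000029280, chromosome 5, 88002549 to 88008534), which encodes a submaxillary gland prohormone, stood at 16.6, 10.2 and 14.8 TPM in the DOX/IgG1 tumors. It was listed at 0 in every DOX/anti-PD-1 tumor and in 5 of the 6 tumors without doxorubicin, with 2.76 TPM in anti-PD-1 tumor 3 (adjusted p = 0.103). Both genes were thus detected in every DOX/IgG1 tumor and in no tumor of the other doxorubicin group. Both met the minimum only through the DOX/IgG1 tumors, so the filter fixed their direction.

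Other salivary-type genes went different ways. Of 18 such genes in the files, 11 were tested, 3 higher and 8 lower, with a median log2 fold change of -0.97, between -1.19 and -0.51 with each tumor left out. It was -0.50 over the 6 genes at the minimum of 5 TPM, and -0.15 over 7 genes when the minimum was applied again without DOX/IgG1 tumor 1, an alternative chosen after seeing the data. At an unadjusted p below 0.05, 4 were lower, but 3 of these, Bpifa2, Smr3a and Klk1, met the minimum only through the DOX/IgG1 tumors, so their count is not set against that of all genes. The filter fixed the direction of these 3, which are also among the 8 lower and in the median of -0.97. That median and split are therefore no evidence on the list's direction. The kallikrein Klk1 stood at 3.2, 1.18 and 1.43 TPM against 0 in each DOX/anti-PD-1 tumor, and the amylase gene Amy1 at 21.1, 42.8 and 34.3 TPM against 14.8, 14.6 and 21.8 TPM. The count of 4 was 2 without DOX/anti-PD-1 tumor 1 or 2 and between 3 and 5 for the other tumors left out. On the higher side 0 genes had such a p with all tumors, and 2 did without DOX/IgG1 tumor 2 or DOX/anti-PD-1 tumor 3. Reads of Amy1 may be shared with near-identical amylase copies, so its level is uncertain. The most abundant gene of the list was the water channel Aqp5, at 252, 251 and 279.9 TPM against 362, 353 and 107 TPM, where the groups overlapped, and 2 of the 18 genes were at 0 in all 6 tumors. Summed over the list, the level was 339, 662 and 450.3 TPM against 716, 483 and 196 TPM, also with overlap. In whole tumors, fewer cells of a type and less RNA per cell cannot be told apart, here and in every group below, and the part of salivary-type cells in the Bpifa2 and Smr3a values was not tested.

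Genes of nerve growth signaling and synaptic adhesion were lower as a group. Ntrk2, the receptor of brain-derived neurotrophic factor, stood at 99.7, 31.3 and 37.7 TPM in the DOX/IgG1 tumors and at 6.74, 6.31 and 15.7 TPM in the DOX/anti-PD-1 tumors (log2 fold change -2.35, SE 0.51). The heparin-binding growth factor Ptn stood at 158, 292 and 441 TPM against 93.8, 69.4 and 117 TPM (log2 fold change -1.57, SE 0.38). Its receptor Ptprz1 stood at 64.5, 44.3 and 41.8 TPM against 19.1, 24 and 23 TPM (log2 fold change -1.13, SE 0.27). For Ptprz1 the DOX/IgG1 tumors lay above all 9 others. In each of these 3 genes the lowest DOX/IgG1 tumor lay above the highest DOX/anti-PD-1 tumor.

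Of the 16 tested genes of that list, 2 were higher and 14 lower, with a median log2 fold change of -0.59 against -0.04 over all genes. Without DOX/IgG1 tumor 1 the median was -0.81, with 15 of 16 lower. It ran from -0.86 to -0.43 with each tumor left out, and without DOX/IgG1 tumor 3 the higher genes numbered 6 and the lower 10. They numbered 4 and 12 without DOX/IgG1 tumor 2 or DOX/anti-PD-1 tumor 2. Summed TPM was 496, 604 and 714 in the DOX/IgG1 tumors, 224, 246 and 285 in the DOX/anti-PD-1 tumors, 330.2, 259 and 472 with IgG1 alone and 231, 228 and 284 with anti-PD-1 alone. The DOX/IgG1 tumors thus lay above the other 9, and the DOX/anti-PD-1 tumors lay at the level of anti-PD-1 alone. Of this list 3 genes, Ntrk2 and Ptn among them, were also picked by the study from these libraries, so their direction is not independent evidence. The postsynaptic scaffold gene Dlg4 (ENSMUSG00000020886, chromosome 11, 70016942 to 70047522), outside the list, stood at 58.3, 42.5 and 25.2 TPM against 9.83, 9.15 and 13.6 TPM (log2 fold change -1.80, SE 0.37).

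Markers of Schwann cells and nerve were given beside these genes. Of 15 tested, 6 were higher and 9 lower, 2 of the 9 at an unadjusted p below 0.05 (13.3%, against 2.89% of all tested genes), with a median log2 fold change of -0.25 (-0.56 without DOX/IgG1 tumor 1 and 0.01, with 8 of 15 higher, without DOX/IgG1 tumor 3). S100b, a calcium-binding protein of glia, stood at 7.71, 25.7 and 25.5 TPM against 6.36, 3.28 and 10.4 TPM and Cnp, an enzyme of myelin-forming cells, at 35, 38.6 and 23.5 TPM against 21.1, 18.6 and 16.8 TPM. Summed TPM was 203, 527 and 451 against 312, 330.4 and 349, with overlap because DOX/IgG1 tumor 1 was the lowest of the 6, and Ncam1 was the most abundant gene. The count of 2 was 0 without DOX/IgG1 tumor 2 or DOX/anti-PD-1 tumor 2, 1 without DOX/IgG1 tumor 3, DOX/anti-PD-1 tumor 1 or DOX/anti-PD-1 tumor 3, and 3 without DOX/IgG1 tumor 1. Their part in the lower neuronal genes was not tested.

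Of the inhibitors of matrix proteases, Timp3 and Timp2 were lower with anti-PD-1 without overlap, and others overlapped. Timp3 (ENSMUSG00000020044, chromosome 10, 86300372 to 86349506), a matrix-bound inhibitor of metalloproteinases, stood at 683, 787 and 768 TPM in the DOX/IgG1 tumors and at 235, 325 and 332 TPM in the DOX/anti-PD-1 tumors (log2 fold change -1.34, SE 0.23, adjusted p = 0.706). Its relative Timp2 stood at 105, 78.8 and 83 TPM against 39, 56.2 and 47.9 TPM (log2 fold change -0.89, SE 0.24). The highest Timp3 value among the 9 tumors outside DOX/IgG1 was 375.7 TPM, so the DOX/IgG1 tumors lay above all of them. Timp1 overlapped, at 25.8, 9.53 and 2.56 TPM against 14.2, 20.3 and 23.6 TPM (log2 fold change 0.99, SE 0.66), and its log2 fold change was 1.70 without DOX/IgG1 tumor 1. Timp4 also overlapped, at 2.41, 4.28 and 7.13 TPM against 1.66, 1.56 and 4.51 TPM (log2 fold change -0.65, SE 0.55). The membrane-anchored inhibitor Reck stood at 7.85, 15.3 and 10.6 TPM against 12.9, 10.1 and 23.4 TPM. The membrane protease Mmp14 showed no such order, at 214, 158 and 235 TPM against 128, 197 and 419 TPM.

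Of 28 tested proteases and inhibitors, 8 were higher and 20 lower, with a median log2 fold change of -0.28, between -0.48 and -0.14 with each tumor left out. At an unadjusted p below 0.05, 3 were lower, namely Timp3, Timp2 and the disintegrin protease Adam12 (10.7%, against 2.89% of all tested genes), and this count was 2 or 3 with each tumor left out. On the higher side 3 genes passed that limit without DOX/IgG1 tumor 1 (10.7%, against 2.51% of all genes in that setting), and 0 did with all tumors. Among the 16 tested genes of the IGF system, 11 were lower and 1 passed (6.25%, against 2.89% of all tested genes), the binding protein Igfbp4, at 301, 387 and 382 TPM against 192, 179.9 and 227 TPM (log2 fold change -0.83, SE 0.22). That count was 2 without DOX/IgG1 tumor 1 or 3. The most abundant binding protein, Igfbp5, stood at 4534, 3875 and 3724 TPM against 2339, 4019.6 and 3011 TPM, with overlap. Timp3 and Igfbp4 are on the study's own list.

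The other genes lower with anti-PD-1 have no common role. Tex15 (ENSMUSG00000009628, chromosome 8, 33516738 to 33585582), needed for meiosis in male germ cells, stood at 36.2, 28.8 and 40.1 TPM against 9.25, 5.4 and 6.96 TPM (log2 fold change -2.15, SE 0.33, adjusted p = 0.36). Msantd1, a gene of a DNA-binding domain family, stood at 23.1, 12.8 and 10.3 TPM against 2.48, 1.15 and 1.2 TPM. The serine protease gene Klk8 stood at 6.48, 9.58 and 10.1 TPM against 0, 1.15 and 0 TPM. For Tex15 and Msantd1 the tumors without doxorubicin overlapped both groups.

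Pdlim4, whose protein binds actin filaments, stood at 63.8, 58 and 40.6 TPM in the DOX/IgG1 tumors and 15.4, 21.4 and 17.5 TPM in the DOX/anti-PD-1 tumors (log2 fold change -1.52, SE 0.28). Here it was the DOX/anti-PD-1 tumors that lay outside, below all 9 others, the lowest of which was at 32.4 TPM. Ankrd12, an ankyrin repeat protein, stood at 106, 86.1 and 108 TPM against 39, 45.3 and 51.8 TPM. The remaining names are uncertain because near-identical copies may share their reads. These are the ferritin pseudogene Ftl1-ps1, at 14.5, 2.89 and 6.69 TPM against 0 in each DOX/anti-PD-1 tumor, and the double homeobox gene Duxbl2, at 8.88, 17.6 and 5.54 TPM against 0.12, 1.56 and 0 TPM. For Ftl1-ps1 the filter fixed the direction.

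The gene with the smallest p among those higher with anti-PD-1 was a histone. Hist1h3a (ENSMUSG00000069265, chromosome 13, 23761853 to 23762386), which encodes histone H3, was listed at 0 in each DOX/IgG1 tumor. It stood at 18.2, 21.4 and 9.34 TPM in the DOX/anti-PD-1 tumors, 8.17, 13.1 and 0 TPM with IgG1 alone and 19.6, 14.5 and 21.1 TPM with anti-PD-1 alone (adjusted p = 0.103, higher in 3 of 3 tumors). Hist1h3a met the minimum only through the DOX/anti-PD-1 tumors, so the filter fixed its direction. Histone H3 genes are near-identical copies of each other, so which copy the reads came from is uncertain. A value of 0 is also no proof of absence, since the ribosomal protein gene Rpl24 was listed at 0 in DOX/anti-PD-1 tumor 1 and at 43.2 and 50.9 TPM in the others of that group.

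Several higher genes serve mitochondria. Higd2a (ENSMUSG00000025868, chromosome 13, 54590207 to 54591158), an assembly factor of the respiratory chain, stood at 15.1, 18.2 and 15.2 TPM in the DOX/IgG1 tumors and 43.7, 37.5 and 39.7 TPM in the DOX/anti-PD-1 tumors (log2 fold change 1.27, SE 0.26). Tsfm, an elongation factor of mitochondrial translation, stood at 3.84, 11 and 9.13 TPM against 29.5, 25.7 and 24.6 TPM (log2 fold change 1.71, SE 0.41). Pycr1, the mitochondrial enzyme of the last step of proline synthesis, stood at 1.22, 2.06 and 3.8 TPM against 21, 8.22 and 10.4 TPM (log2 fold change 2.05, SE 0.51). For Higd2a the DOX/anti-PD-1 tumors lay above all 9 others, and for Pycr1 the DOX/IgG1 tumors lay below all 9 others. The wider lists were closer to all genes. Of 32 respiratory chain genes 23 were higher, with a median log2 fold change of 0.12 that ran from 0.01 without DOX/anti-PD-1 tumor 1 to 0.33 without DOX/anti-PD-1 tumor 3. Of 17 mitochondrial aminoacyl-tRNA synthetases 12 were higher, with a median of 0.13 that ran from 0.07 without DOX/IgG1 tumor 1 to 0.31 without DOX/anti-PD-1 tumor 1, and 2 had an unadjusted p below 0.05 (11.8%, against 1.81% of all tested genes). That count was 0 without DOX/IgG1 tumor 3 and 1 without DOX/IgG1 tumor 2 or DOX/anti-PD-1 tumor 1.

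Ppp1r14b (ENSMUSG00000056612, chromosome 19, 6974968 to 6977324), an inhibitor of protein phosphatase 1, stood at 9.36, 6.45 and 9.02 TPM against 30.9, 36.5 and 24.5 TPM (log2 fold change 1.77, SE 0.32, adjusted p = 0.706). Lgals7, a galectin of stratified epithelium, stood at 16, 16.6 and 11.4 TPM against 50.1, 54.3 and 28.8 TPM. Lgr6, an R-spondin receptor found on epithelial stem cells, stood at 11.9, 20.8 and 27.4 TPM against 43.1, 73.1 and 68.7 TPM. In Ppp1r14b and Lgals7 the DOX/IgG1 tumors lay below all 9 others. Slc2a9, a urate transporter, stood at 4.12, 14.5 and 13.3 TPM against 30.6, 60 and 38.6 TPM, the latter above all 9 other tumors. Tmc5, of a family of transmembrane channel-like proteins, stood at 4.4, 16.3 and 9.56 TPM against 29.1, 42.9 and 32.5 TPM. Cfap53, a protein of motile cilia, was listed at 0 in the DOX/IgG1 tumors and stood at 4.34, 1.86 and 7.87 TPM in the DOX/anti-PD-1 tumors, so the filter fixed its direction. The motile cilia list does not hold Cfap53, and the 6 of its 15 genes that were tested were all lower.

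The target of the antibody was near the limit of detection. Pdcd1 stood at 0, 2.17 and 2.09 TPM in the DOX/IgG1 tumors and 0, 0.83 and 0 TPM in the DOX/anti-PD-1 tumors, and Pdcd1lg2 reached 0.62 TPM in DOX/IgG1 tumor 3 and was at 0 in the other 5, so neither was tested. Cd274 stood at 4.91, 7.71 and 4.38 TPM against 6.58, 4.78 and 3.67 TPM (log2 fold change -0.15, SE 0.43, exact permutation p = 0.6, two-sided). Its groups overlapped, and its sign turned without DOX/IgG1 tumor 2 and without DOX/anti-PD-1 tumor 3.

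Of 18 other checkpoint and costimulatory genes tested, 7 were higher and 11 lower, 3 of the 11 at an unadjusted p below 0.05 (16.7%, against 2.89% of all tested genes), with a median log2 fold change of -0.19. The count was 2 or 3 with each tumor left out. The median was -0.338 without DOX/IgG1 tumor 1, when 14 were lower, and -0.325 without DOX/anti-PD-1 tumor 3, when 13 were lower. Cd226, an activating receptor of T and NK cells, stood at 5.2, 7.75 and 6.81 TPM in the DOX/IgG1 tumors and 1.57, 1.35 and 0 TPM in the DOX/anti-PD-1 tumors (log2 fold change -2.04, SE 0.54). Cd27, a costimulatory receptor, stood at 173, 59.5 and 40.8 TPM against 7.92, 16.6 and 34.6 TPM (log2 fold change -2.10, SE 0.62). Havcr2, which encodes the inhibitory receptor TIM-3, stood at 7.08, 11.2 and 16.6 TPM against 5.11, 5.33 and 3.98 TPM (log2 fold change -1.06, SE 0.42). The 3 genes thus hold activating and inhibitory receptors alike, each lower in every DOX/anti-PD-1 tumor. Lgals9, a ligand of TIM-3 and the most abundant gene of the list, stood at 65.9, 55.3 and 39.6 TPM against 74.7, 90.4 and 54.4 TPM, with overlap.

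Markers of T cells and NK cells depended on DOX/IgG1 tumor 1. Of 12 T cell genes tested, 3 were higher and 9 lower, 0 with an unadjusted p below 0.05, and their summed TPM was 16.8, 72.8 and 69.3 in the DOX/IgG1 tumors and 31.6, 33.9 and 50.2 in the DOX/anti-PD-1 tumors. The median log2 fold change was -0.44 with this tumor and -0.92 without it, when 11 of 12 were lower and 2 reached such a p (16.7%, against 5.03% of all genes in that setting), and -0.14 without DOX/IgG1 tumor 2, when 7 were lower. Of 17 tested genes of NK cells and cytotoxic effectors, 6 were higher and 11 lower, with summed TPM of 13.8, 119.5 and 104 against 43.5, 74.9 and 48.1. Their median was -0.24, and -1.15 without DOX/IgG1 tumor 1, when 14 were lower and 5 had an unadjusted p below 0.05 (29.4%, against 5.03%). It turned to 0.235 without DOX/IgG1 tumor 2, with 11 of 17 higher, and to 0.03 without DOX/IgG1 tumor 3, with 9 higher. The count of NK genes at such a p was also 2 without DOX/anti-PD-1 tumor 2 and 1, a higher one, without DOX/IgG1 tumor 2. DOX/IgG1 tumors 2 and 3 held the highest sums of the 6 for both lists, and tumor 1 held the lowest.

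Klrd1, which encodes the NK receptor CD94 and was the most abundant gene of its list, shows this order. It stood at 0, 17.4 and 22.1 TPM against 3.86, 9.1 and 13.5 TPM. Its group means on the log2 scale differed by 0.25 with all tumors and by -1.21 without DOX/IgG1 tumor 1. The granule protease gene Gzma stood at 2.7, 19 and 13.3 TPM against 0, 9.58 and 0 TPM (log2 fold change -2.21, SE 1.01, exact permutation p = 0.2). Cd247, the signaling chain of the T cell receptor, stood at 9.28, 10.5 and 11.8 TPM against 2.3, 8.02 and 0 TPM (log2 fold change -1.89, SE 0.74), and unlike Klrd1 and Gzma its groups did not overlap. Of 15 tested genes of T cell receptor signaling, 5 were higher and 10 lower, 1 of the 10 at an unadjusted p below 0.05 (6.67%, against 2.89% of all tested genes). That count was 3 without DOX/IgG1 tumor 1, 1 without DOX/anti-PD-1 tumor 2 and 0 for the other tumors left out. Foxp3, which defines regulatory T cells, stood at 1.34, 1.89 and 1.5 TPM against 0.55, 0.73 and 0 TPM, at levels so low that only the DOX/IgG1 tumors met the minimum.

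Of 19 macrophage genes tested, 3 were higher and 16 lower, with a median log2 fold change of -0.40 and summed TPM of 2975, 2769 and 2245 against 1443, 2205 and 2642, with overlap. At an unadjusted p below 0.05, 2 were lower (10.5%, against 2.89% of all tested genes) and 1 was higher (5.26%, against 1.81%). Cx3cr1, a chemokine receptor of monocyte-derived macrophages, stood at 23.3, 52 and 52.9 TPM against 12.2, 27 and 19.9 TPM (log2 fold change -1.05, SE 0.41), and Mertk, a receptor for engulfing dying cells, at 18.7, 18.1 and 20.8 TPM against 8.92, 10.6 and 13.4 TPM. The high-affinity Fc receptor gene Fcgr1 was higher, at 0.87, 7.64 and 1.55 TPM against 7.85, 8.78 and 12.4 TPM (log2 fold change 1.60, SE 0.61). The groups overlapped for Cx3cr1 and not for Mertk and Fcgr1. The median was -0.48 without DOX/IgG1 tumor 1 and -0.16 without DOX/anti-PD-1 tumor 1, when 8 were higher and 11 lower. The lower count was 0 without DOX/IgG1 tumor 2 or 3, 1 without DOX/anti-PD-1 tumor 1 or 3 and 3 without DOX/IgG1 tumor 1, and the higher count was 0 unless DOX/IgG1 tumor 2 was the one left out. The most abundant gene was Apoe, at 513, 1171 and 908 TPM against 421, 515 and 1042 TPM.

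Many targets of interferon gamma were lower in the DOX/anti-PD-1 tumors. Of 18 genes tested, which are 16 targets and both subunits of the receptor, 5 were higher and 13 lower, and 7 of the 13 showed no overlap between the groups (38.9%, against 5.95% of all tested genes). The 7 are the immunity-related GTPases Iigp1, Tgtp2, Igtp and Irgm2 and the guanylate-binding proteins Gbp2, Gbp5 and Gbp7. The promoters of 6 of them, from 250 bases before to 50 after the start, are printed here because these genes differ in the same direction. They come from RefSeq on GRCm38.p6, and the promoter file used holds 15 of the 18 genes. Tgtp2 lies at chr11:49064163-49064462 on the minus strand, and the others lie on the plus strand, Igtp at chr11:58199306-58199605, Irgm2 at chr11:58214727-58215026, Gbp2 at chr3:142620413-142620712, Gbp5 at chr3:142496684-142496983 and Gbp7 at chr3:142530086-142530385. Each is written 5' to 3' along the gene, and capitals mark matches on either strand to TTCNNNGAA, the letters of the gamma-activated site (GAS), or to GAAA, any 2 bases and GAAA, the core of the interferon-stimulated response element (ISRE).
Tgtp2: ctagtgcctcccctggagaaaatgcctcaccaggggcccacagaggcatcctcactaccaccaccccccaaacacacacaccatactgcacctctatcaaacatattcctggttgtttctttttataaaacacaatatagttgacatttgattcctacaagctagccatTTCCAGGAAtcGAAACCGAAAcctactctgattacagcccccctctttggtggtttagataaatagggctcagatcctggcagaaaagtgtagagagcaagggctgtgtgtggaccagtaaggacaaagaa
Igtp: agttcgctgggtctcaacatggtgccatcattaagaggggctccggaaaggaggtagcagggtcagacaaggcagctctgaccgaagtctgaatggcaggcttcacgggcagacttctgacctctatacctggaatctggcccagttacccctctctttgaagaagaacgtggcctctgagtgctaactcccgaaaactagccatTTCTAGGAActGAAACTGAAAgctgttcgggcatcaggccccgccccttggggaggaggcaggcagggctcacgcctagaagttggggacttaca
Irgm2: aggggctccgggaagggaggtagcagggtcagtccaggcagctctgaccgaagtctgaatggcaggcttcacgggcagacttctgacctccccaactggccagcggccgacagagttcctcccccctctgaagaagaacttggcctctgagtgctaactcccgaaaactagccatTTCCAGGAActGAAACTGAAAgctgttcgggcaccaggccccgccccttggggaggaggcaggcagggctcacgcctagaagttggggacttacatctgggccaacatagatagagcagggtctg
Gbp2: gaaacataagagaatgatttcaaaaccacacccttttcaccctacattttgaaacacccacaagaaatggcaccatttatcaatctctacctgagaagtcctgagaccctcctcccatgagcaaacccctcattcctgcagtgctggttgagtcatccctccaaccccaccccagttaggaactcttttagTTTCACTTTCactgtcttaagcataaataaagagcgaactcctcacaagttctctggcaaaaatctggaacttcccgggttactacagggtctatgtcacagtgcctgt
Gbp5: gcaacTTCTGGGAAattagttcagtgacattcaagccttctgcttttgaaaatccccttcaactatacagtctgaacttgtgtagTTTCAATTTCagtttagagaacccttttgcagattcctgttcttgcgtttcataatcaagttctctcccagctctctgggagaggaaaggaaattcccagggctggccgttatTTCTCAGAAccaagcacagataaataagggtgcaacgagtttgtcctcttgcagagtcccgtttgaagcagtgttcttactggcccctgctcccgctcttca
Gbp7: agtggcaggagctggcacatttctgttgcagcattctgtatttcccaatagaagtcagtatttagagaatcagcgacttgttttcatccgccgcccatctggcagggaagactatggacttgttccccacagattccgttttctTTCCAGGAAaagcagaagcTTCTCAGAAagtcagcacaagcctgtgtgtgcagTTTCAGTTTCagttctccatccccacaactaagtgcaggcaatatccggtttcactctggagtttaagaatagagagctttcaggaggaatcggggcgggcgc

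All 6 printed promoters hold the ISRE letters and 5 hold the GAS letters, Gbp2 being the exception. Over the 15 genes in that file, 11 hold the ISRE letters, 7 the GAS letters and 6 both. Among 32851 mouse promoters of the same length, 3.44% hold the ISRE letters, 8.3% the GAS letters and 0.454% both. In Tgtp2, Igtp and Irgm2 the GAS letters come just before the ISRE letters, ending 73, 37 and 67 bases before the start, where the ISRE letters begin at 70, 34 and 64. These promoters are related copies, with a longest shared run of 61 bases between Igtp and Irgm2 and of 17 between Tgtp2 and Irgm2, so they are not independent examples. The capitals show where letters match and do not show binding.

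Most of these genes were lowest in DOX/anti-PD-1 tumor 3. Iigp1 stood at 109, 111 and 116 TPM in the DOX/IgG1 tumors and 71, 77.8 and 70 TPM in the DOX/anti-PD-1 tumors (log2 fold change -0.62, SE 0.20). Igtp stood at 78.5, 46.3 and 44.8 TPM against 33.2, 38.9 and 15.4 TPM (log2 fold change -0.98, SE 0.39). Gbp2 stood at 76.6, 68.2 and 62.9 TPM against 52.2, 47.6 and 18.7 TPM (log2 fold change -0.92, SE 0.38). In each of these genes that tumor was the lowest of the 6, for Iigp1 by a small margin. Tgtp2 stood at 76.2, 64.1 and 52.3 TPM against 34.9, 44.1 and 12.4 TPM and is uncertain because its copy Tgtp1 may share reads, with 72.7, 7.18 and 27.4 TPM against 16.9, 12.7 and 11.7 TPM. The receptor subunits overlapped, with Ifngr1 at 115, 89.1 and 66.6 TPM against 70.7, 71.8 and 77.8 TPM and Ifngr2 at 28.1, 17.7 and 21.1 TPM against 35.1, 30.1 and 15.4 TPM.

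Summed over the 18 genes, receptor subunits included, TPM was 964, 838 and 883 in the DOX/IgG1 tumors, 648, 639 and 548 in the DOX/anti-PD-1 tumors, 528, 506 and 599 with IgG1 alone and 769.8, 478 and 532 with anti-PD-1 alone. The DOX/IgG1 tumors lay above all 9 others, and the DOX/anti-PD-1 tumors lay within the range of tumors without doxorubicin. The median log2 fold change was -0.57, and -0.49 without DOX/IgG1 tumor 1. The 6 genes with an unadjusted p below 0.05 (33.3%, against 2.89% of all tested genes) became 1 without DOX/IgG1 tumor 1, 3 without DOX/IgG1 tumor 2, DOX/IgG1 tumor 3 or DOX/anti-PD-1 tumor 3, 4 without DOX/anti-PD-1 tumor 1 and 7 without DOX/anti-PD-1 tumor 2. The chemokine genes Cxcl9 and Cxcl10 had higher means with anti-PD-1 and overlapped, Cxcl9 at 0, 2.29 and 3.45 TPM against 6.05, 4.65 and 1.74 TPM and Cxcl10 at 8.03, 11.9 and 2.71 TPM against 5.84, 29 and 12 TPM. The summed TPM of the 18 genes was the highest of the 12 tumors in DOX/IgG1 tumor 1, which stood apart from the other tumors. The part of T and NK cells, whose markers are given above, was not tested.

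Related interferon lists had medians closer to that of all genes. Of 16 tested genes of MHC class I presentation, 6 were higher and 10 lower, 0 with an unadjusted p below 0.05 (2 without DOX/anti-PD-1 tumor 2 and 1 without DOX/IgG1 tumor 1), and the median log2 fold change was -0.26. The median was -0.07 without DOX/anti-PD-1 tumor 3, when 9 were lower, and between -0.34 and -0.18 for the other tumors left out. B2m, the invariant light chain, stood at 1242, 2515 and 2536 TPM against 1741, 2344 and 451 TPM, the lowest value in DOX/anti-PD-1 tumor 3. Of 29 interferon-stimulated genes, 11 were higher and 18 lower, 1 of the 18 at an unadjusted p below 0.05 (3.45%, against 2.89% of all tested genes). That count was 0 without DOX/IgG1 tumor 1 and 3 without DOX/anti-PD-1 tumor 1. The median of -0.10 turned to 0.12 without DOX/IgG1 tumor 1 and to 0.03 without DOX/anti-PD-1 tumor 3, when 17 were higher. Mx1, an antiviral GTPase, was higher in every DOX/anti-PD-1 tumor, at 16, 13.8 and 10.5 TPM against 18.5, 24.2 and 20 TPM.

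Targets of p53 were mostly lower with anti-PD-1. Ccng1, which encodes cyclin G1, stood at 167, 132 and 125 TPM in the DOX/IgG1 tumors and 86, 41.5 and 97.1 TPM in the DOX/anti-PD-1 tumors (log2 fold change -0.99, SE 0.33). The translesion DNA polymerase Polk stood at 26.7, 28.2 and 43.8 TPM against 17.9, 10.4 and 22.6 TPM (log2 fold change -0.95, SE 0.36). Trp53inp1, a stress protein that amplifies the p53 response, stood at 196, 210.4 and 151 TPM against 48.5, 65.8 and 151 TPM (log2 fold change -1.22, SE 0.40, exact permutation p = 0.2). For Ccng1 and Polk the groups did not overlap, and for Trp53inp1 only DOX/anti-PD-1 tumor 3 reached the other group. That tumor was also the one in which the cell cycle inhibitor Cdkn1a was highest, at 54.8, 36.4 and 29.6 TPM against 23.9, 13.7 and 67.6 TPM. The p53 antagonist Mdm2 stood at 168, 78.8 and 92.3 TPM against 78.4, 53.5 and 138 TPM, with overlap.

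Of 24 tested p53 targets, 2 were higher and 22 lower, 5 of these at an unadjusted p below 0.05 (20.8%, against 2.89% of all tested genes), with Btg2 and Ei24 besides those named. Summed TPM, with Ei24 as the most abundant gene, was 1525, 1151 and 1065 in the DOX/IgG1 tumors and 703, 622 and 1036 in the DOX/anti-PD-1 tumors, and the 9 tumors outside DOX/IgG1 lay at 1036 or below. The median log2 fold change of -0.48 became -0.15 without DOX/IgG1 tumor 1, with 15 of 24 lower. Then 5 genes had such a p (20.8%, against 5.03% of all genes in that setting), Ei24 no longer among them. Without DOX/IgG1 tumor 3 the count was 3, and without DOX/anti-PD-1 tumor 1 or 2 it was 2. Genes of doxorubicin's targets and efflux were even, 6 higher and 5 lower of 11, 0 with such a p (1 without DOX/IgG1 tumor 1), and Top2b, a target of the drug, stood at 159.5, 91.3 and 125 TPM against 98.4, 71.9 and 114 TPM.

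Genes of cell division were higher. Of 22 genes of mitosis and the spindle, 21 were higher and 1 lower, and of 21 genes of S phase 20 were higher and 1 lower, against 6460 higher and 7486 lower of all tested genes. Their median log2 fold changes were 0.61 and 0.57, against -0.04 over all genes. Birc5, which encodes survivin of the chromosomal passenger complex, stood at 24.9, 5.53 and 6.16 TPM in the DOX/IgG1 tumors and 59.7, 42.5 and 18.6 TPM in the DOX/anti-PD-1 tumors (log2 fold change 1.81, SE 0.61, exact permutation p = 0.2). The proliferation marker Mki67 stood at 81.5, 25.2 and 51.7 TPM against 149.7, 89.4 and 33.9 TPM (log2 fold change 0.69, SE 0.57, exact permutation p = 0.4). Topoisomerase Top2a, the main target of doxorubicin in dividing cells, stood at 107, 33.5 and 85.5 TPM against 115, 155 and 60.1 TPM. For Birc5, Mki67 and Top2a the groups overlapped, with DOX/IgG1 tumor 1 high in its group and DOX/anti-PD-1 tumor 3 low in its group.

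For a few genes of DNA replication the groups did not overlap. Lig1 (ENSMUSG00000056394, chromosome 7, 13277283 to 13311433), the ligase that joins Okazaki fragments and not a member of the list, stood at 15, 15.7 and 17.8 TPM against 39.3, 39.1 and 29.4 TPM (log2 fold change 1.09, SE 0.27). Rrm2, the small subunit of ribonucleotide reductase, stood at 31.6, 13.1 and 25.8 TPM against 48.4, 48.7 and 33.9 TPM, and the clamp loader gene Rfc4 at 13.8, 12.8 and 17.2 TPM against 54.5, 47.8 and 18.6 TPM. The most abundant, the sliding clamp gene Pcna, overlapped, at 157, 155 and 165 TPM against 223, 188 and 105 TPM. At an unadjusted p below 0.05 there was 1 mitosis gene (4.55%) and there were 2 S phase genes (9.52%), all higher, against 1.81% of all tested genes.

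The size of the difference in cell division genes varied with the tumors kept. Without DOX/IgG1 tumor 1 the medians were 1.02 for mitosis and 0.69 for S phase, and 8 and 6 genes had an unadjusted p below 0.05 (36.4% and 28.6%, against 2.51% of all genes higher in that setting). Over all tumors left out in turn, the mitosis median ran from 0.26 to 1.02 with 0 to 8 such genes, and the S phase median from 0.36 to 0.82 with 0 to 6. The count for mitosis was 0 without DOX/IgG1 tumor 2 and without DOX/anti-PD-1 tumor 1 or 2, 2 without DOX/IgG1 tumor 3 and 5 without DOX/anti-PD-1 tumor 3. For S phase it was 1 without DOX/IgG1 tumor 2, 0 without DOX/anti-PD-1 tumor 1 or 2, 2 without DOX/IgG1 tumor 3 and 3 without DOX/anti-PD-1 tumor 3. Summed mitosis TPM was 943, 288 and 495 against 1113, 930 and 504, and the tumors without doxorubicin lay between 611 and 1248.

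**Figure D3:**
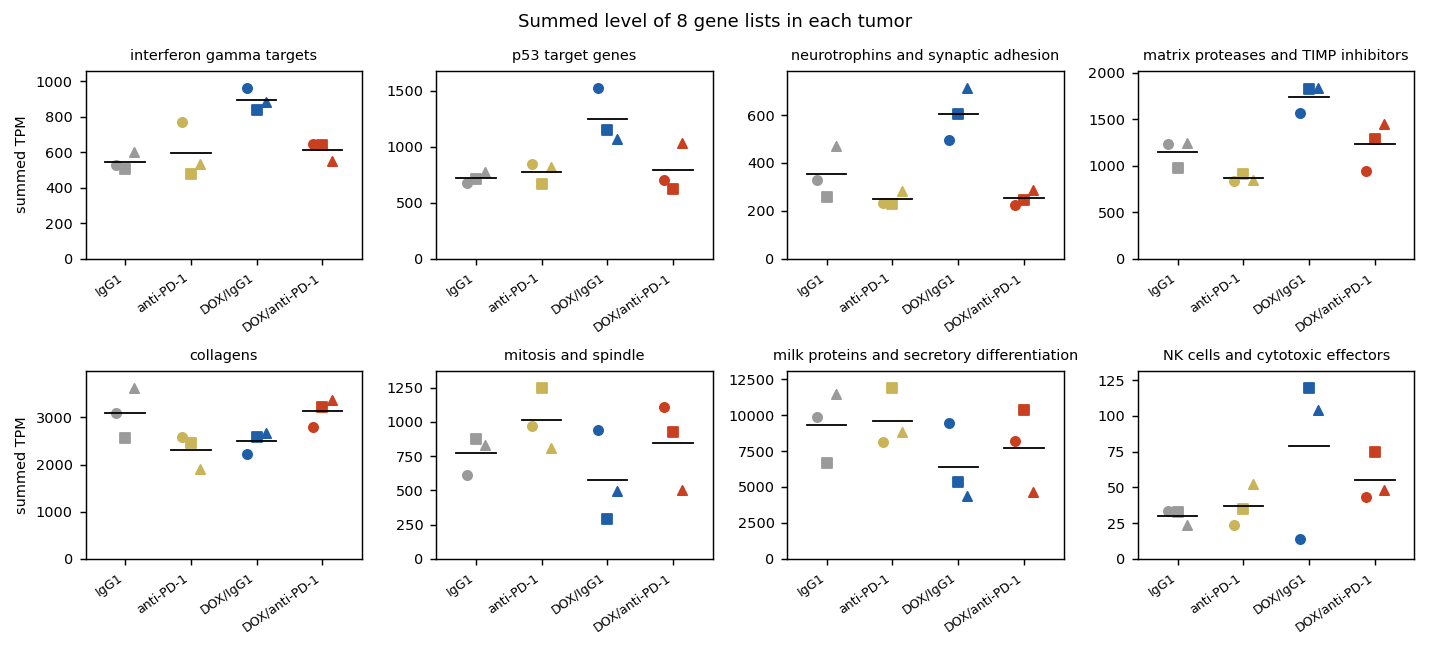
Summed TPM of 8 gene lists in each of the 12 tumors, by group, with a line at the group mean, shape for the tumor number and axes that start at 0. For the interferon gamma list, which holds both receptor subunits, and the p53, neurotrophin and protease lists, the DOX/IgG1 tumors are the highest, and for NK genes DOX/IgG1 tumor 1 is the lowest of the 12.

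Genes of milk secretion were higher with anti-PD-1. Lalba, which encodes alpha-lactalbumin of lactose synthesis, stood at 6.6, 134 and 60.4 TPM in the DOX/IgG1 tumors and 340.1, 443 and 158 TPM in the DOX/anti-PD-1 tumors (log2 fold change 2.86, SE 0.92). The kappa-casein gene Csn3, the most abundant of the list, stood at 812, 3071 and 2403 TPM against 5652, 7864 and 2669 TPM (log2 fold change 1.44, SE 0.58, exact permutation p = 0.2). The log2 fold change without DOX/IgG1 tumor 1 was 1.66 for Lalba and 0.85 for Csn3, which then no longer had an unadjusted p below 0.05. For Lalba the groups did not overlap, and for Csn3 only DOX/anti-PD-1 tumor 3 lay within the other group. Csn2, the beta-casein gene, was low throughout, at 0.56, 0.21 and 0 TPM against 2.23, 4.43 and 7.35 TPM. Wap, the whey acidic protein gene, stood at 0, 1.79 and 0 TPM against 8, 2.64 and 3.92 TPM.

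Of 16 tested milk and secretory genes, 12 were higher and 4 lower, 6 of the 12 at an unadjusted p below 0.05. They are Csn2, Lalba, Csn3, Wap, the alpha-casein Csn1s2a, whose near-identical copy Csn1s2b makes it uncertain, and Xdh, an enzyme needed to release milk fat. The median log2 fold change was 0.67, between 0.58 and 0.98 with each tumor left out. Csn2 met the minimum only through the DOX/anti-PD-1 tumors, so the filter fixed its direction. It is also among the 12 higher and in the median. The count of 6 is therefore not set against that of all genes. This count was 3 without DOX/anti-PD-1 tumor 2 and between 4 and 7 for the other tumors left out. Summed TPM was 9455, 5372 and 4383 against 8201, 10338 and 4652 and overlapped, with Ltf making up most of it in DOX/IgG1 tumor 1.

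The transcription factor Xbp1, which drives secretory capacity and the unfolded protein response, went with them. It stood at 303, 368 and 297 TPM in the DOX/IgG1 tumors and 593, 718 and 544 TPM in the DOX/anti-PD-1 tumors (log2 fold change 0.93, SE 0.23). The tumors without doxorubicin were higher than both, at 779.6, 1019 and 860 TPM with IgG1 and 968, 1004 and 815 TPM with anti-PD-1. Of 20 genes of the unfolded protein response, 16 were higher and 4 lower, 2 with an unadjusted p below 0.05 (Xbp1 and the chaperone Hyou1, 10% against 1.81% of all tested genes), and the median log2 fold change was 0.33, between 0.14 and 0.53 with each tumor left out. That count was 9 without DOX/anti-PD-1 tumor 3, 2 without DOX/IgG1 tumor 1 and 1 without any of the other 4 tumors. The endoplasmic reticulum chaperone Hspa5 stood at 1615, 1295 and 1189 TPM against 1908, 2610.1 and 1309.6 TPM, with overlap.

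Acute phase and mucosal defense genes were mostly higher, 11 of 14, 2 with an unadjusted p below 0.05 (14.3%, against 1.81% of all tested genes). That count was 1 without DOX/IgG1 tumor 3 or DOX/anti-PD-1 tumor 2. Saa1, a serum amyloid protein, stood at 20.3, 30.5 and 12.4 TPM against 37.3, 91.8 and 149 TPM (log2 fold change 1.96, SE 0.51), and Saa2 stood at 15.3, 9.19 and 9.12 TPM against 24.9, 23.1 and 19 TPM. Both are near-identical copies, so reads may be split between them. The tumors without doxorubicin were higher still for Saa2, at 74.7, 64.9 and 71.5 TPM with IgG1 and 44.8, 27.8 and 71.5 TPM with anti-PD-1. The list's median was 0.41. It was 0.16 without DOX/IgG1 tumor 3, when 8 of 14 were higher, 0.16 without DOX/anti-PD-1 tumor 2, and between 0.33 and 0.61 for the other tumors left out.

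**Figure D4:**
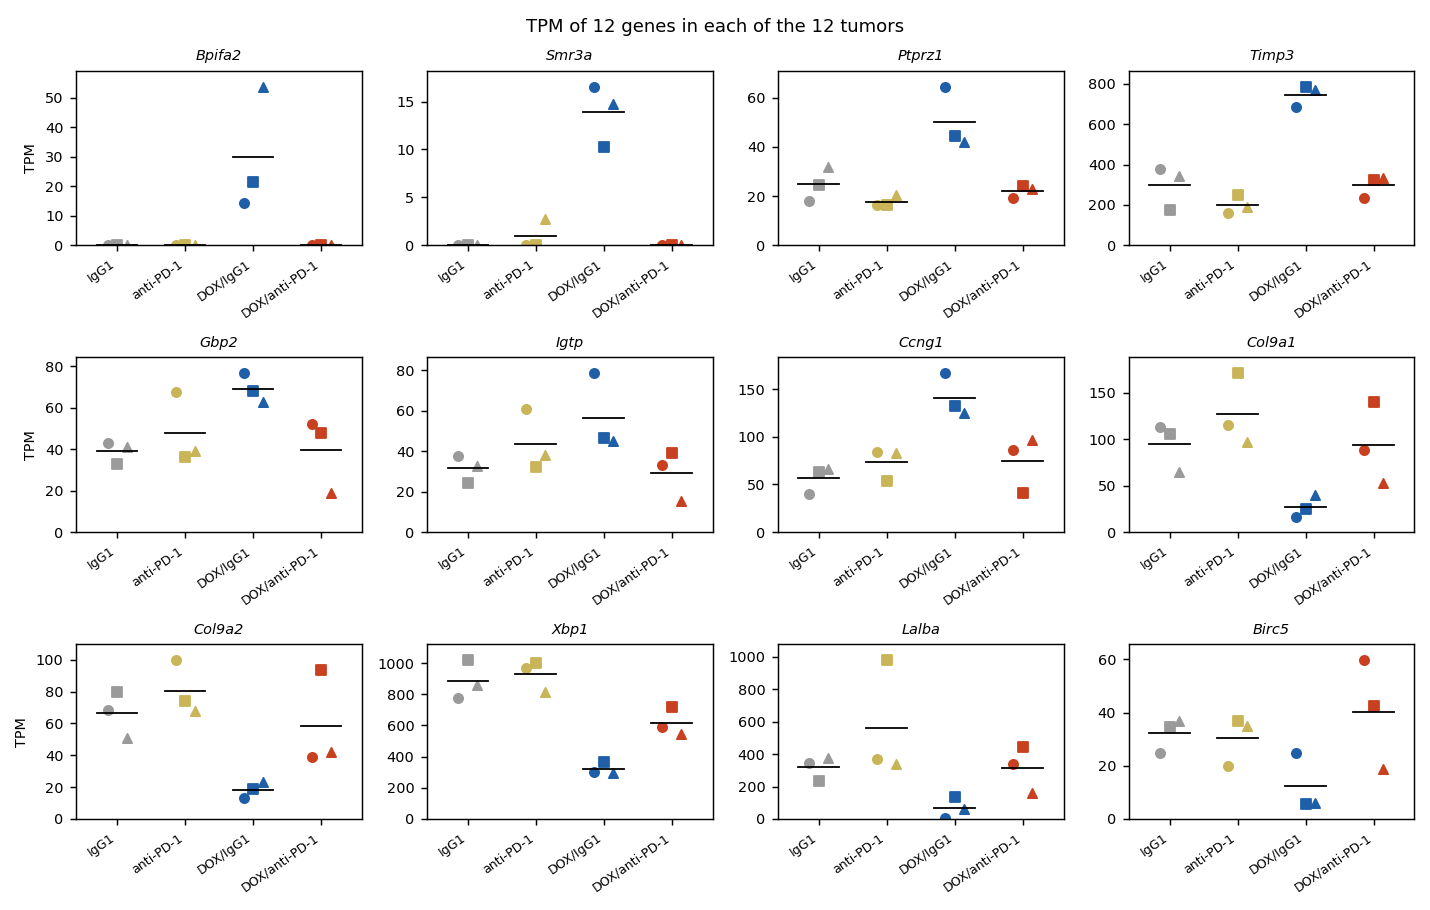
TPM of 12 genes in each of the 12 tumors by group, with a line at the group mean and axes that start at 0. Bpifa2 is at 0 outside DOX/IgG1, Timp3 and Ptprz1 are highest there, and Col9a1, Xbp1 and Lalba are lowest there.

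Among the collagens, all 3 chains of collagen IX, a fibril-associated collagen of cartilage, were higher. Col9a1 (ENSMUSG00000026147, chromosome 1, 24177610 to 24252684) stood at 16, 25.2 and 39.8 TPM in the DOX/IgG1 tumors and 88.5, 139.9 and 53.1 TPM in the DOX/anti-PD-1 tumors (log2 fold change 1.74, SE 0.43). Col9a2 stood at 13, 19 and 22.9 TPM against 38.8, 93.5 and 42.3 TPM (log2 fold change 1.54, SE 0.39). Col9a3 stood at 44, 25.8 and 15.9 TPM against 45, 48.8 and 74.4 TPM (log2 fold change 1.03, SE 0.39). In all 3 genes every DOX/anti-PD-1 tumor lay above every DOX/IgG1 tumor, for Col9a3 by the smallest margin. The tumors without doxorubicin lay at 114, 106 and 64.8 TPM with IgG1 and 115, 171 and 96.6 TPM with anti-PD-1 for Col9a1. Other genes of cartilage were mixed. Of 15 tested genes of cartilage-type matrix, 7 were higher and 8 lower with a median log2 fold change of -0.24, which turned to 0.11 without DOX/IgG1 tumor 2 and 0.15 without DOX/anti-PD-1 tumor 1. The collagen IX chains were the only 3 with an unadjusted p below 0.05 (20%, against 1.81% of all tested genes). Without DOX/IgG1 tumor 1 such a p was found in 4 higher genes (26.7%, against 2.51% of all genes in that setting). It was also found in 1 lower gene (6.67%, against 5.03%). The transcription factor Sox9, which drives these genes in cartilage, overlapped, at 122, 102 and 93.4 TPM against 61.4, 95.6 and 109.5 TPM.

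Of 32 collagen genes tested, 22 were higher and 10 lower, 5 of the 22 at an unadjusted p below 0.05 (15.6%, against 1.81% of all tested genes). Besides the 3 chains these are Col7a1, which forms anchoring fibrils of the basement membrane, at 10.8, 15.2 and 17.9 TPM against 32.3, 21.9 and 37.5 TPM, and Col5a2, which helps to set fibril width, at 63.4, 75.7 and 99.9 TPM against 115, 118 and 181 TPM. The count was 2 without DOX/anti-PD-1 tumor 3 and 4 or 6 for the other tumors left out. The median log2 fold change was 0.19, and summed TPM was 2229, 2576 and 2663 against 2798, 3225 and 3375, without overlap. The median was 0.37 without DOX/IgG1 tumor 3 and 0.31 without DOX/anti-PD-1 tumor 1. Without DOX/anti-PD-1 tumor 2, 17 genes were higher and 15 lower. The most abundant, Col4a1 of the basement membrane, stood at 621, 448 and 495 TPM against 600.5, 454 and 583 TPM, with overlap. Col9a1 is also on the study's list.

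Markers of the cells that could supply matrix or epithelial genes took an order that depended on the tumors kept. For fibroblasts, 10 of 17 tested genes were higher with a median log2 fold change of 0.21, and -0.31 without DOX/IgG1 tumor 1, when 4 were lower at an unadjusted p below 0.05 (23.5%, against 5.03% of all genes in that setting), with summed TPM of 1105, 3356 and 2095 against 2027, 2369 and 2323. For basal and myoepithelial cells, 7 of 14 were higher with a median of 0.00, and -0.75 without it, when 5 were lower at such a p (35.7%). The basal median was also below 0, at -0.33 without DOX/anti-PD-1 tumor 3 and -0.06 without DOX/anti-PD-1 tumor 2, and reached 0.30 without DOX/IgG1 tumor 3. For luminal epithelium, 6 of 19 were higher with a median of -0.18, and -0.42 without DOX/IgG1 tumor 1, when 8 were lower (42.1%) and 2 higher (10.5%, against 2.51% of all genes) at such a p. The luminal keratin Krt19 shows the spread, at 302, 1261 and 1801 TPM against 656, 421 and 779.9 TPM, and Postn, a matrix protein of fibroblasts and the most abundant gene of that list, stood at 305, 336 and 287 TPM against 507, 603 and 322 TPM. Endothelial genes were even, 11 higher and 9 lower of 20, with a median of 0.14 that ran from -0.07 without DOX/IgG1 tumor 1, and -0.04 without DOX/anti-PD-1 tumor 2, to 0.44 without DOX/IgG1 tumor 2. For fibroblasts the median was between 0.05 and 0.48 with any other tumor left out, and for luminal epithelium it also turned, to 0.01 and 0.12, without DOX/IgG1 tumor 2 and 3. What share these cells have in the collagen and milk genes was not tested.

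Genes of skeletal muscle and fat varied from tumor to tumor, and the source of these transcripts was not tested. Summed TPM of 18 skeletal muscle genes was 95.7, 248 and 297 in the DOX/IgG1 tumors and 1607, 22.7 and 289 in the DOX/anti-PD-1 tumors, where tumor 1 was the highest of all 12. Acta1, skeletal actin, was the most abundant, at 12.1, 51.6 and 87.9 TPM against 193, 0 and 16.6 TPM. Summed adipocyte TPM was 408, 2043 and 467 against 1666, 617 and 717, highest in DOX/IgG1 tumor 2 and DOX/anti-PD-1 tumor 1. In both lists 0 tested genes had an unadjusted p below 0.05 with all tumors. Without DOX/anti-PD-1 tumor 2, 7 of 17 muscle genes were higher at such a p, against 192 of all 13946 genes. It was 1 lower muscle gene without DOX/anti-PD-1 tumor 1 (314 of all genes) and 1 higher without DOX/anti-PD-1 tumor 3 (383 of all genes). Without DOX/IgG1 tumor 2, 6 of 15 adipocyte genes were higher at such a p, against 286 of all genes.

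**Figure D5:**
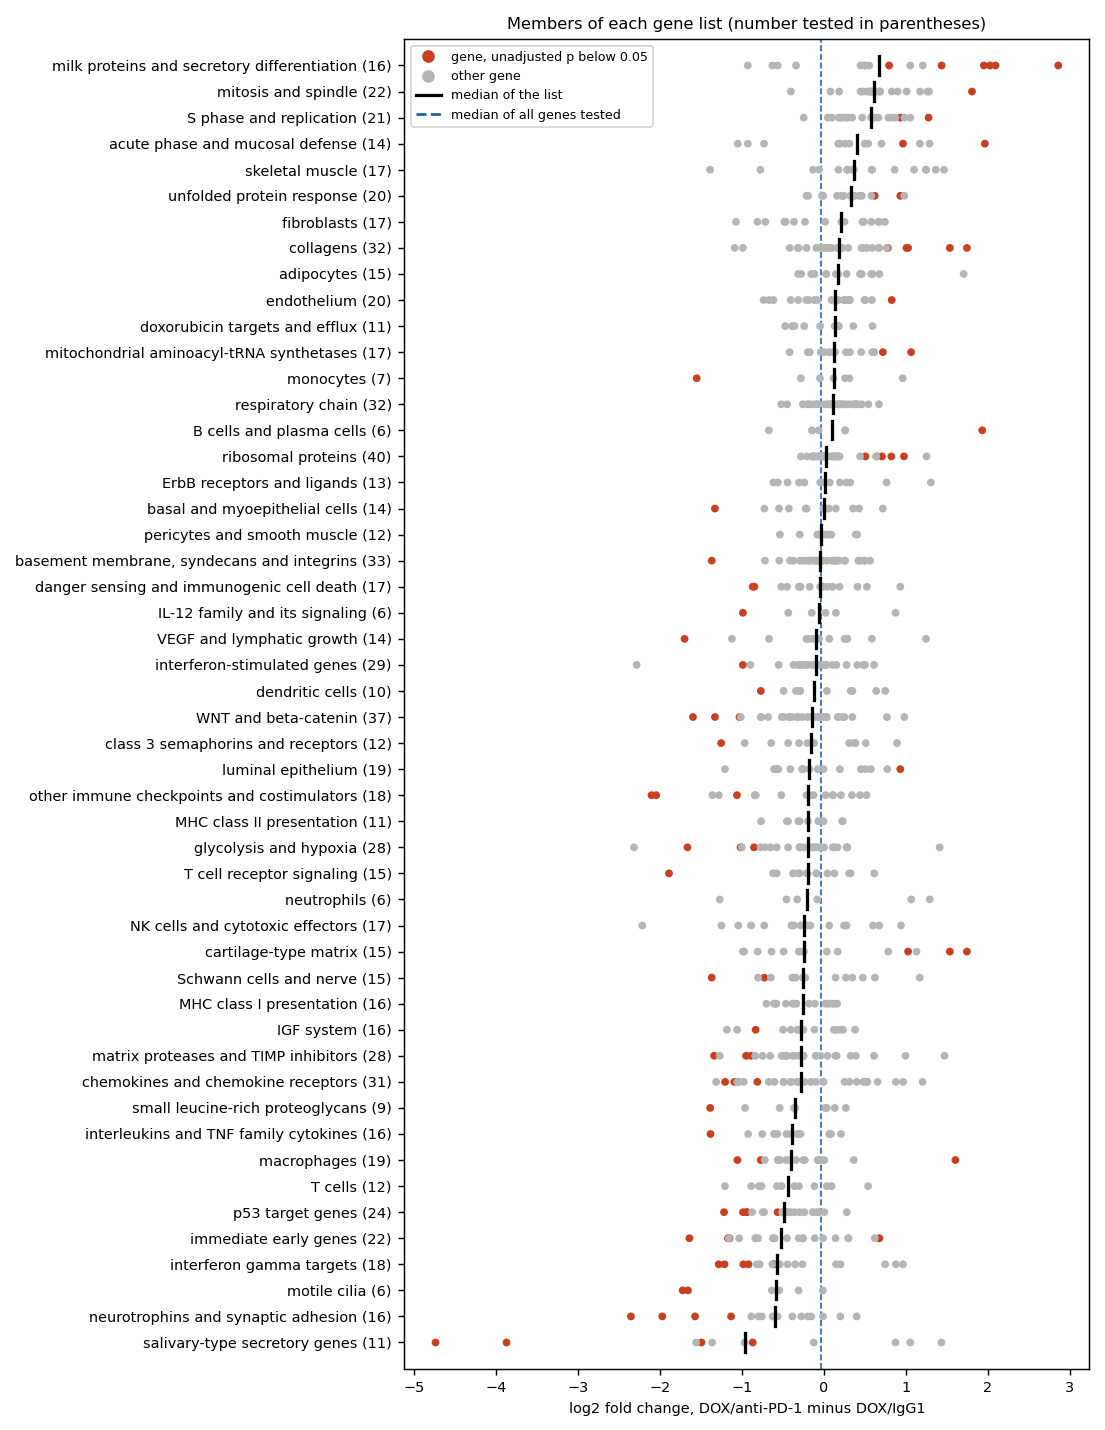
Each point is a tested gene of a list, placed at its log2 fold change (DOX/anti-PD-1 minus DOX/IgG1), red where the unadjusted p is below 0.05. The black tick is the list's median and the dashed line the median of all 13946 genes, at -0.04. Milk, mitosis and S phase lists lie to the right, and the salivary, neurotrophin, interferon gamma and p53 lists lie to the left. The filter fixed the direction of Bpifa2, Smr3a and Klk1 in the salivary list and of Csn2 in the milk list.

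The study lists 19 genes for this comparison, which it called with DESeq2 at an adjusted p below 0.1 and a log2 fold change above 1. At these limits limma on TPM called 0 genes here. Of the 19, 3 are higher and 16 lower. All 19 were tested here, had an unadjusted p below 0.05 in that direction and showed no overlap. These genes were picked from these libraries, so the counts are no independent evidence. Those not yet described include Fxyd2, a regulator of the sodium pump, at 47.1, 246 and 197 TPM against 3.21, 8.75 and 39 TPM (log2 fold change -3.50, SE 0.85). Vamp1, a vesicle fusion protein, stood at 269, 92.9 and 78.4 TPM against 19, 29 and 56.6 TPM, and Prelp, a matrix proteoglycan, at 31.9, 46.6 and 34.3 TPM against 12, 15.7 and 13.3 TPM. Sema3c, a secreted guidance protein, stood at 38.2, 65.3 and 50.5 TPM against 21.5, 18.8 and 21.2 TPM. DOX/IgG1 tumor 1 was high for Vamp1 and low for Fxyd2 within its group, and in all of these genes the groups stayed apart.

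Whether anti-PD-1 acted differently with doxorubicin was tested as an interaction across all 12 tumors. Of 14735 genes tested, limma called 1 (0.00679%), Bpifa2 (adjusted p = 0.0909), which is at 0 in all tumors without doxorubicin, so its interaction repeats the difference given above, and 694 genes had an unadjusted p below 0.05, fewer than the 737 that chance alone would give. Given side by side, the antibody difference in Timp3 was -1.34 on doxorubicin and -0.53 without it (log2 fold changes), and in Col9a1 1.74 and 0.43. Other genes took other orders, with -0.83 and -1.05 in Igfbp4, -1.57 and -0.93 in Ptn, and -2.35 and 0.92 in Ntrk2. For none of these genes did the interaction pass the adjusted limit, the limma adjusted p being 0.993 for each. The arms also differ in start size, dose and schedule, so their effects on the interaction cannot be told apart from that of doxorubicin.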

How the data were processed

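The authors trimmed reads with skewer, aligned them to mm10 with STAR, quantified genes with RSEM and deposited log2(TPM + 1) for 21960 genes per tumor, written with decimal commas. Reversing the log2 step gave TPM in steps of 0.01. Counts were not used here, so depth and counting error are unknown. Positions are from GENCODE vM21 (GRCm38/mm10).

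For the tests, limma 3.58.1 (R 4.3.3) was run on log2(TPM + 1) with a mean-variance trend, two-sided, with Benjamini-Hochberg adjustment over all genes at 1 TPM or more in at least 3 tumors of the fit. A call needed an adjusted p under 0.1 and a difference of more than 1 on the log2 scale. Single genes had exact permutation tests. The labels name no mouse or date shared by tumors of the same number, so no replicate block was used. On simulated data the fit called all planted differences and a few others, and none where none was planted. The planted differences were large and the simulated spread was the same for every gene. The simulation therefore does not show how many true differences the fit would miss in these tumors. Figures were drawn with matplotlib 3.10.9 (Python 3.11.15).

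Named were the 12 higher and 12 lower genes with the smallest p among those beyond a log2 fold change of 1, with an unadjusted p below 0.05 and no overlap, PD-1 and its ligands, the study's own 19 genes, tissue markers, and from each of 53 gene lists described up to 4 members by p and level. Some genes under this rule are not described, and some of the 53 lists, such as MHC class II presentation, monocytes and neutrophils, are not described at all. Members named beyond it were chosen after their values were seen. The members and lists were chosen with earlier results of these data known. Alternatives were another pseudocount, other minimums, scaling, fits, a block and leaving out tumors.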

Additional observations from a re-analysis of the deposited data

Results flagged for a closer look

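Bpifa2 was called by the interaction test of doxorubicin and antibody across 12 tumors (limma adjusted p = 0.0909, 1 gene of 14735). It stood at 14.4, 21.3 and 53.7 TPM in the DOX/IgG1 tumors and was listed at 0 in the other 9, so no fold is given. It met the minimum only through the DOX/IgG1 tumors, and with 0 in all tumors without doxorubicin the interaction repeats the difference between the doxorubicin groups and is no separate evidence. The filter fixed its direction. The call was kept without DOX/IgG1 tumor 1 (adjusted p = 0.0332) and lost with each of the other 11 tumors left out. Over the other settings it was lost with a pseudocount of 0.1, a minimum of 5 TPM, scaling and a replicate block, and its adjusted p was 0.0455 with no minimum, 0.024 without a trend and 0.0903 with a robust fit. Start size, dose and schedule also differ between the arms, and their part was not tested.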

How the results depend on the processing

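The count of genes called between the groups, 0, was 3 with scaling by the median of ratios, 2 with all 12 tumors in the fit, 3 without a trend and 0 with a pseudocount of 0.1, no minimum, a minimum of 5 TPM, a robust fit, no fold limit or the replicate block. It ran from 0 to 4 with each tumor left out, the 4 without DOX/IgG1 tumor 1 being Stc2, Amtn, Bpifa2 and Gm26992. Applying the minimum again to the 5 tumors left, an alternative chosen after seeing the data, gave 3 calls (Stc2, Amtn and Gm26992), 1030 genes at an unadjusted p below 0.05 and 3397 without overlap. Genes at an unadjusted p below 0.05, 655 with all tumors, ran from 541 to 899 over the other settings and from 516 to 1051 with a tumor left out, highest without DOX/IgG1 tumor 1. Genes without overlap, 1425, ran from 2397 to 3450 with a tumor left out, since fewer tumors overlap less by construction. The interaction call of 1 gene was 0 with a pseudocount of 0.1, 3 with no minimum, 0 with a minimum of 5 TPM, 0 with scaling, 3 without a trend and 0 with the block, and ran from 0 to 1 with a tumor left out. The cause of these shifts was not tested. As a replicate block, the tumor number gave 0 calls, 680 genes at an unadjusted p below 0.05 and 0 interaction calls. Same-numbered tumors correlated at 0.0248, -0.0814 and 0.0962 after group means were removed, across genes, and 3 of 6 tumors correlated best with their own number, so the unpaired fit was kept. Scaling took the median log2 fold change of all genes from -0.04 to -0.00189 and the share lower among genes at an unadjusted p below 0.05 from 61.5% to 54.5%. Of 43 named genes 39 kept their sign throughout, and Cd274, Cdh1, Krt8 and Krt18 did not. Of 53 list medians 25 kept their sign. Genes at 0 in a group moved with the pseudocount, since the log scale there depends on it. Unknown depth limits every value near 0.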

Other observations

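Immediate early genes, which answer growth signals and stress within minutes, were mostly lower with anti-PD-1, 17 of 22, with a median log2 fold change of -0.53 (-0.21 without DOX/IgG1 tumor 2). At an unadjusted p below 0.05, 3 were lower (Fosb, Egr1 and Dusp2, 13.6% against 2.89% of all tested genes) and 1 was higher (Ier3, 4.55% against 1.81%). Egr1, a zinc finger factor, stood at 58.8, 87.7 and 33.1 TPM in the DOX/IgG1 tumors and 20, 17.7 and 41.2 TPM in the DOX/anti-PD-1 tumors, with overlap through DOX/anti-PD-1 tumor 3. The lower count was 0 without DOX/IgG1 tumor 2 or DOX/anti-PD-1 tumor 2, 1 without DOX/anti-PD-1 tumor 1, 5 without DOX/anti-PD-1 tumor 3 and 6 without DOX/IgG1 tumor 3. Genes induced by tissue handling belong to this list, and the part of handling was not tested.

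Of 28 genes of glycolysis and hypoxia, 20 were lower with a median log2 fold change of -0.19, and 3 were lower at an unadjusted p below 0.05 (10.7%, against 2.89%). Without DOX/IgG1 tumor 1 or DOX/anti-PD-1 tumor 3, 14 were lower, with medians of -0.02 and -0.01, and without DOX/anti-PD-1 tumor 2 the median was -0.43 with 6 lower at such a p. Car12, a carbonic anhydrase induced by hypoxia, stood at 385, 305 and 247 TPM against 116, 234 and 128 TPM, and the aldolase Aldoc at 459, 243 and 330.3 TPM against 179.5, 214 and 162 TPM, both without overlap. Among 31 chemokine and receptor genes tested, 3 were lower at an unadjusted p below 0.05 (9.68%, against 2.89%), namely Cxcl16, Ackr4 and Ccl28 (5 without DOX/IgG1 tumor 1 and 1 without DOX/anti-PD-1 tumor 1 or 3). Cxcl16, a membrane-bound chemokine, stood at 119, 76.2 and 82.5 TPM against 47.4, 58.6 and 48.6 TPM. In the danger sensing list, 7 of 17 genes were higher and 10 lower with a median of -0.04, which turned to 0.00811 without DOX/IgG1 tumor 1. The median was -0.26 without DOX/anti-PD-1 tumor 2, when 12 were lower, and -0.20 without DOX/IgG1 tumor 3. At an unadjusted p below 0.05, 2 were lower (11.8%, against 2.89%), or 1 without DOX/IgG1 tumor 2 or DOX/anti-PD-1 tumor 2. Of these, the inflammasome protease Casp1 stood at 70.3, 102 and 78.5 TPM against 47.9, 53 and 35.5 TPM and the annexin Anxa1, a signal of dying cells, at 587, 1059 and 779 TPM against 549.6, 380.4 and 397 TPM, both lower in every DOX/anti-PD-1 tumor. Of 40 ribosomal protein genes, 24 were higher, 5 with an unadjusted p below 0.05 (12.5%, against 1.81% of all tested genes). That count was 7 without DOX/IgG1 tumor 1, when 34 were higher, 3 without DOX/IgG1 tumor 2 or DOX/anti-PD-1 tumor 1, 1 without DOX/IgG1 tumor 3 and 2 without DOX/anti-PD-1 tumor 2. The median of that list, 0.03, took the other sign without DOX/IgG1 tumor 3 and without DOX/anti-PD-1 tumor 1 or 2, and was 0.18 without DOX/IgG1 tumor 1 and 0.20 without DOX/anti-PD-1 tumor 3, when 35 were higher.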
